A study of Mus musculus with 4 samples.

Results

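Kidney chemokines were examined in whole kidneys of mice with pristane-induced lupus-like disease. They comprised 10 listed genes of the 54532 in each count table, namely Cxcl9, Cxcl10, Ccl5, Ccl2, Cxcl1, Cxcl12, Cxcl13, Cxcl14, Cxcl16 and Cx3cl1. The genes were taken by name and matched through their Ensembl identifiers. All 10 passed the filter on low counts. RNA-Seq libraries came from WT kidneys and from ZBP1-KO kidneys, with 2 libraries per genotype and 4 in all. All animals, controls included, were female mice on a C57BL/6J background that had received 500 µL of pristane, a hydrocarbon oil that provokes lupus-like disease, by intraperitoneal injection when 8 weeks old. Kidneys were taken 8 months later. The knockout was made by CRISPR-Cas9 deletion within the Zbp1 gene and is present in every cell, so the libraries do not show in which cells Zbp1 is needed. Libraries from animals without pristane were not analysed here, and the levels below therefore describe diseased kidneys of both genotypes. Nothing in the labels says that replicates were separate animals, so p-values measure only the spread between these libraries.

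Chemokines are small secreted or membrane-tethered proteins that bind receptors on leukocytes and direct their migration along a gradient. In nephritis, chemokines made by tubular, glomerular and vascular cells recruit T cells, monocytes, neutrophils and B cells into the kidney. Some, such as Cxcl9 and Cxcl10, are made mainly after exposure to interferon, whereas others, such as Cxcl12 and Cx3cl1, are made by resting kidney cells. The comparison asked whether these genes differed between pristane-treated kidneys with and without Zbp1, whose protein senses nucleic acids in the Z conformation.

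The promoters of 3 genes are shown because their values divided the libraries in contrasting ways below. Cxcl9 and Cxcl10 are neighbours on chromosome 5, 18558 bases apart and both on the minus strand, and Cxcl1 lies on the plus strand of the same chromosome. Each sequence holds the 250 bases before the transcription start in RefSeq (build GRCm38.p6), 5′ to 3′ on the strand of the gene. Capitals mark matches to the core of the interferon response element (the letters GAAA, any 2 bases, then GAAA again) or to the NF-kB consensus, searched on both strands.
Cxcl10, chr5:92348890-92349139, minus strand: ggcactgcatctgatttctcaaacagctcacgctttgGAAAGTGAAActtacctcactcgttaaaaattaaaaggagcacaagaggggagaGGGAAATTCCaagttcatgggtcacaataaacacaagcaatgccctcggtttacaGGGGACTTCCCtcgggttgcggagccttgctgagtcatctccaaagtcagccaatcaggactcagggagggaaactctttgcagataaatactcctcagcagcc
Cxcl9, chr5:92328080-92328329, minus strand: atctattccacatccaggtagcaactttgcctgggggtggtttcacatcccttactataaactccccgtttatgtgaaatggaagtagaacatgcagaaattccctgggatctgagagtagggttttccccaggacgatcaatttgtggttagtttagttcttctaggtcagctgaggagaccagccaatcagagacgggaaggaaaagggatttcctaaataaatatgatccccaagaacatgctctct
Cxcl1, chr5:90890995-90891244, plus strand: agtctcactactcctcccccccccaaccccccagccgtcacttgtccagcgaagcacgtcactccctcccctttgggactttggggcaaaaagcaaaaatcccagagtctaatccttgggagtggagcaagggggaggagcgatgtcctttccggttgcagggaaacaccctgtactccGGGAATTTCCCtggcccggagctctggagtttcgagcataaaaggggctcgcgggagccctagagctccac

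In the Cxcl10 window, the interferon response element core began 213 bases before the start, and the NF-kB consensus matched at 159, 104 and 103 bases before it, the last 2 matches overlapping each other. The Cxcl1 window held overlapping NF-kB matches 71 and 70 bases before the start and no interferon response element core. The Cxcl9 window held neither. The gamma-activated sequence (TTCNNNGAA) matched in none of these 3 windows. Of 7 members with a promoter entry, Cxcl14 was the only other with a match, with an interferon response element core at 172 bases and a gamma-activated sequence at 191 bases before its start. Over all 32851 promoter windows of this length, 2.98% held the interferon response element core, 7.25% the NF-kB consensus and 7.02% the gamma-activated sequence. A match describes letters only.

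Total counts were 9878776 to 12921925 per library, and mitochondrially encoded genes took 49.5% to 61.5% of them. Zbp1, the targeted gene, had 94 and 125 counts in WT 1 and WT 2, and 18 and 0 counts in ZBP1-KO 1 and ZBP1-KO 2. The log2 fold change was -3.64 ± 0.89 (SE, n = 2 each; edgeR quasi-likelihood adjusted p = 0.999). Other settings called Zbp1 lower, with adjusted p of 0.011 in the exact test of edgeR, 0.00749 in its likelihood ratio test, 2.86e-05 with all genes of at least 1 count and 0.0159 without ZBP1-KO 1. Over all settings its adjusted p ran from 2.86e-05 to 1, the latter in DESeq2 and without either WT library. The count of 0 allows up to 0.323 CPM (counts scaled to the effective library size after TMM normalization) in that library. Kidney genes were abundant in every library. The summed level of 8 epithelial genes, which include the proximal tubule phosphate transporter Slc34a1, Umod of the thick ascending limb, the collecting duct water channel Aqp2 and the podocyte gene Nphs1, was 3350 to 3960 CPM. Across all genes, the edgeR quasi-likelihood test called 2 of 14908 genes, or 0.0134%, at an adjusted p under 0.05, and 3.88% had an unadjusted p under 0.05. The groups did not overlap, with both ZBP1-KO values above both WT values, for 16.0% of tested genes, and with both below for 16.3%.

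Levels were first compared between the 10 genes after division by gene length. On the scale of CPM per kilobase of merged exons, Cxcl12 had the highest mean (23.8), followed by Cx3cl1 (20.3), Cxcl14 (18.6) and Cxcl16 (12.6). The remaining genes had lower means, with 7.44 for Ccl5, 5.81 for Cxcl10, 5.05 for Cxcl9, 3.62 for Ccl2, 2.55 for Cxcl13 and 1.35 for Cxcl1. Each gene overlapped the next in this order when its lowest library was set against the highest library of the next. Within every library, Cxcl12 lay above Cx3cl1, and Cxcl16 above Ccl5. No other neighbours kept their order in every library. The range over the 4 libraries was narrow for some genes and wide for others. The highest library exceeded the lowest 1.11-fold for Cx3cl1, 1.32-fold for Cxcl16 and 1.33-fold for Cxcl12. In bulk tissue, fewer cells of a type and less RNA per cell cannot be told apart. The ratio of highest to lowest was 6.91-fold for Cxcl9, 9.76-fold for Cxcl1, 11.2-fold for Cxcl10 and 12.8-fold for Ccl5.

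**Figure D1:**
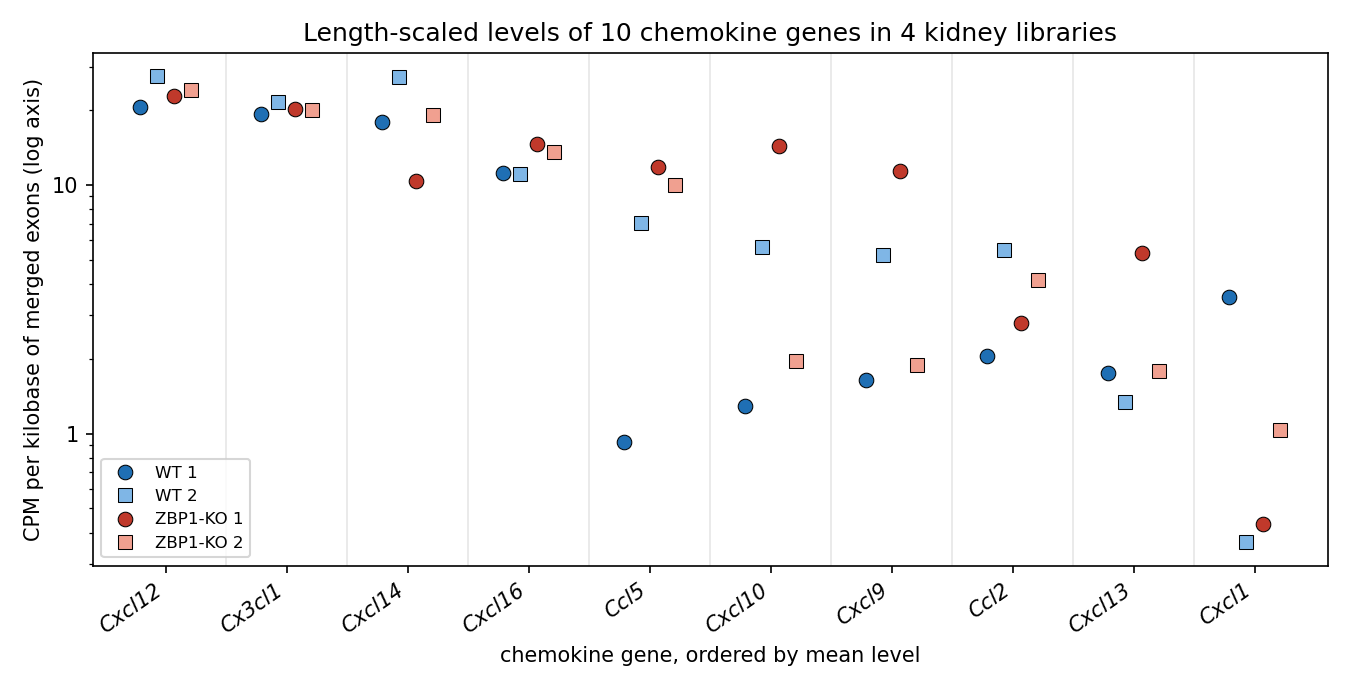
Level of each chemokine gene in CPM per kilobase of merged exons (log axis), with 1 point per library and genes ordered by their mean. Points of Cxcl12, Cx3cl1 and Cxcl16 lie close together, whereas those of Ccl5, Cxcl10, Cxcl9 and Cxcl1 spread 6.91-fold to 12.8-fold.

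Between genotypes, the edgeR quasi-likelihood test called 0 of the 10 chemokines, each with an adjusted p of 0.999, against 0.0134% of all genes. At an unadjusted p under 0.05, 0 of 10 passed in this test, against 3.88% of all genes. The count was 1 in the exact test of edgeR (4.40% of all genes), 1 in DESeq2 (3.11%) and 2 in limma-voom (3.98%). It reached its highest value, 4 of 10, with all genes of at least 1 count (3.72%), without WT 2 (2.12%) and without ZBP1-KO 2 (8.47%). Log2 fold changes (ZBP1-KO over WT) were above 0 for 5 genes and below 0 for 5, with a median of 0.16 against -0.006 for all tested genes. The groups did not overlap for 3 genes (Ccl5, Cxcl13 and Cxcl16), each higher in ZBP1-KO, where the background was 16.0%. In each of these 3, exact 95% Poisson intervals, which cover counting error only, overlapped between the closest WT and ZBP1-KO libraries, as given below. No chemokine had both ZBP1-KO values below both WT values, where the background was 16.3%. For 6 of the 10 genes the ZBP1-KO replicates differed from each other by more than the genotypes did. With 2 libraries per group, an exact permutation test of 1 gene cannot give a two-sided p below 0.333.

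**Figure D2:**
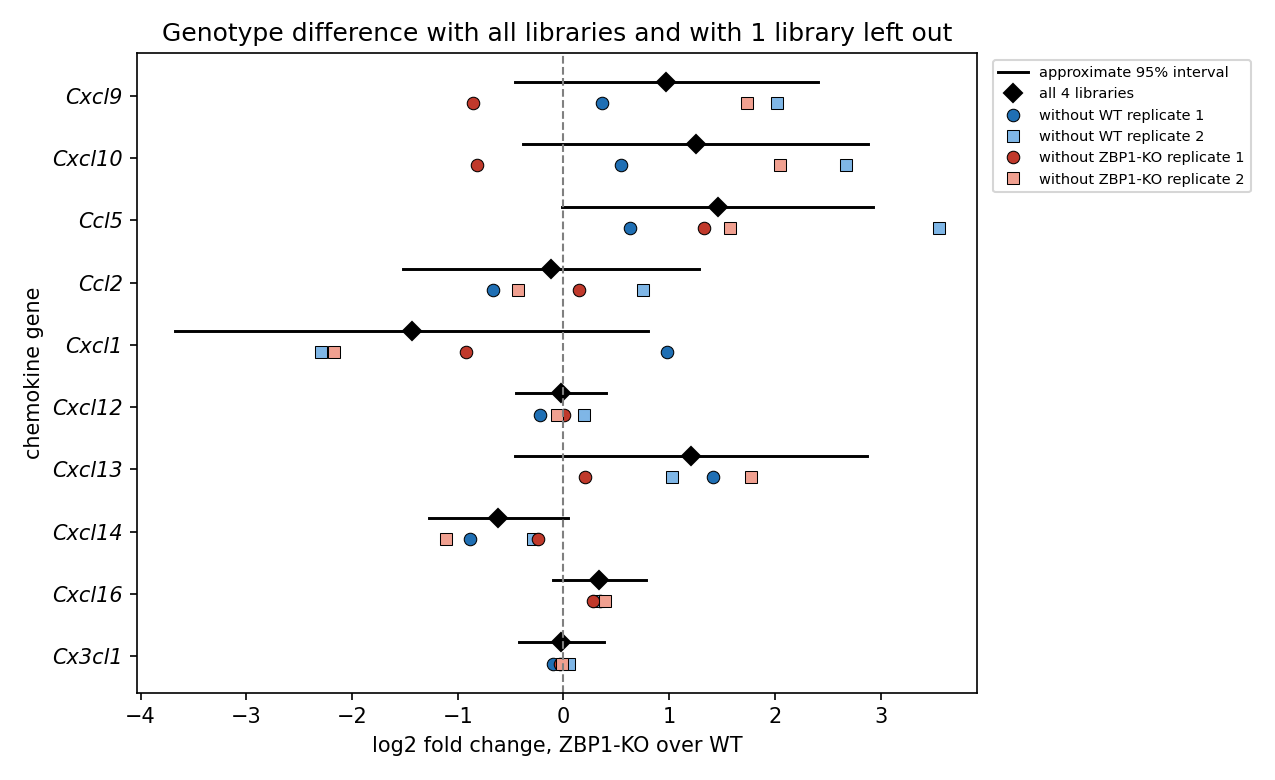
Log2 fold change of each chemokine gene (ZBP1-KO over WT) from all 4 libraries with its approximate 95% interval (black), and with each library left out in turn (coloured points). All 10 intervals include 0, and the fold changes of Cxcl9 and Cxcl10 fall below 0 without ZBP1-KO 1.

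The ligands of Cxcr3, a receptor of activated T cells, were examined next. Cxcl9 (ENSMUSG00000029417, chromosome 5, 92321347 to 92328079), which is induced mainly by interferon gamma, had 62 and 184 counts in the WT libraries against 467 and 53 counts with ZBP1-KO. These corresponded to 4.99 and 15.7 CPM in WT 1 and WT 2 and to 34.4 and 5.71 CPM in ZBP1-KO 1 and ZBP1-KO 2. ZBP1-KO 1 was thus the highest library, ZBP1-KO 2 lay below WT 2, and the genotypes overlapped. Its fold change on the log2 scale was 0.97 ± 0.66 (SE, n = 2 each; edgeR adjusted p = 0.999), with an interval of -0.46 to 2.41.

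Cxcl10 (ENSMUSG00000034855, chromosome 5, 92346638 to 92348889), induced by type I and type II interferons, showed the same order of libraries. It measured 2.90 and 12.7 CPM in the WT libraries against 32.3 and 4.42 CPM with ZBP1-KO. The exact 95% Poisson interval, which covers counting error only, was 29.3 to 35.5 CPM in ZBP1-KO 1 and 3.17 to 5.99 CPM in ZBP1-KO 2. The difference between these replicates was therefore larger than counting error. It amounted to 7.31-fold, and to 6.03-fold for Cxcl9, against a 4.4-fold and a 3.16-fold excess of WT 2 over WT 1. On the log2 scale, the replicate differences in ZBP1-KO were 2.85 for Cxcl10 and 2.58 for Cxcl9, where the median absolute difference over all tested genes was 0.40. The genotype difference of Cxcl10 was 1.25 ± 0.75 (log2, SE, n = 2 each; edgeR adjusted p = 0.999), with an interval of -0.38 to 2.88. With ZBP1-KO 1 left out, Cxcl10 and Cxcl9 had log2 fold changes of -0.82 and -0.86. The ratio of Cxcl9 to Cxcl10 counts varied much less than their levels, with 1.72 and 1.23 in WT and 1.07 and 1.29 in ZBP1-KO.

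Exons of Cxcl10 overlap those of Art3 on the opposite strand, and strand use in the counting was not stated. Art3 had 48 and 46 counts in the WT libraries against 36 and 33 with ZBP1-KO, so it did not share the swings of Cxcl10. Cxcl11, the remaining ligand of Cxcr3, measured 2.01 and 2.91 CPM in the WT libraries against 2.80 and 0.323 CPM with ZBP1-KO. It was lowest in ZBP1-KO 2, but unlike its neighbours Cxcl9 and Cxcl10 it was not raised in ZBP1-KO 1 above WT 2. Its log2 fold change was -0.62 ± 1.02 (SE, n = 2 each; edgeR adjusted p = 0.999).

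Other interferon-induced genes were set beside Cxcl9 and Cxcl10. The list held 10 genes, which encode guanylate-binding proteins and immunity-related GTPases that act on intracellular pathogens, immunoproteasome subunits and the class I transactivator Nlrc5. Their summed level was 184 and 349 CPM in the WT libraries against 657 and 322 CPM with ZBP1-KO, the order of libraries seen for Cxcl10. ZBP1-KO 1 was the highest library for 10 of 10 of these genes and for 26.5% of all tested genes. The full order of ZBP1-KO 1, WT 2, ZBP1-KO 2 and WT 1 was shared by 5 of the 10 and by 3.49% of all tested genes. This order was chosen after the values of Cxcl10 had been seen. In the quasi-likelihood test of edgeR, 0 of the 10 were called. An unadjusted p under 0.05 was seen for 8, all higher in ZBP1-KO, against 3.88% of all tested genes. The median log2 fold change over the 10 was 0.99. The 8 genes were Gbp2, Gbp3, Gbp4, Gbp5, Igtp, Irgm1, Psmb9 and Nlrc5, with log2 fold changes from 0.56 for Gbp3 to 1.36 for Nlrc5. In CPM, which also grows with gene length, the list was led by Gbp3 (70.3 CPM), Iigp1 (61.4 CPM) and Irgm1 (43.9 CPM). Iigp1, a GTPase of the immunity-related family, measured 17.9 and 66.8 CPM in the WT libraries against 128 and 32.4 CPM with ZBP1-KO, close to the pattern of Cxcl10. Nlrc5 differed from it, with 9.81 and 12.8 CPM in the WT libraries against 30.5 and 27.6 CPM with ZBP1-KO, and its groups did not overlap. Its log2 fold change was 1.36 ± 0.26 (SE, n = 2 each; edgeR quasi-likelihood adjusted p = 0.452). Nlrc5 was called higher in the exact test of edgeR (adjusted p = 0.00779), in its likelihood ratio test (adjusted p = 0.00689) and with all genes of at least 1 count (adjusted p = 0.0029), and its adjusted p over all settings ran from 0.0029 to 1. The part of ZBP1-KO 1 as a library in these values was not tested. It also had the lowest mitochondrial share (49.5%).

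**Figure D3:**
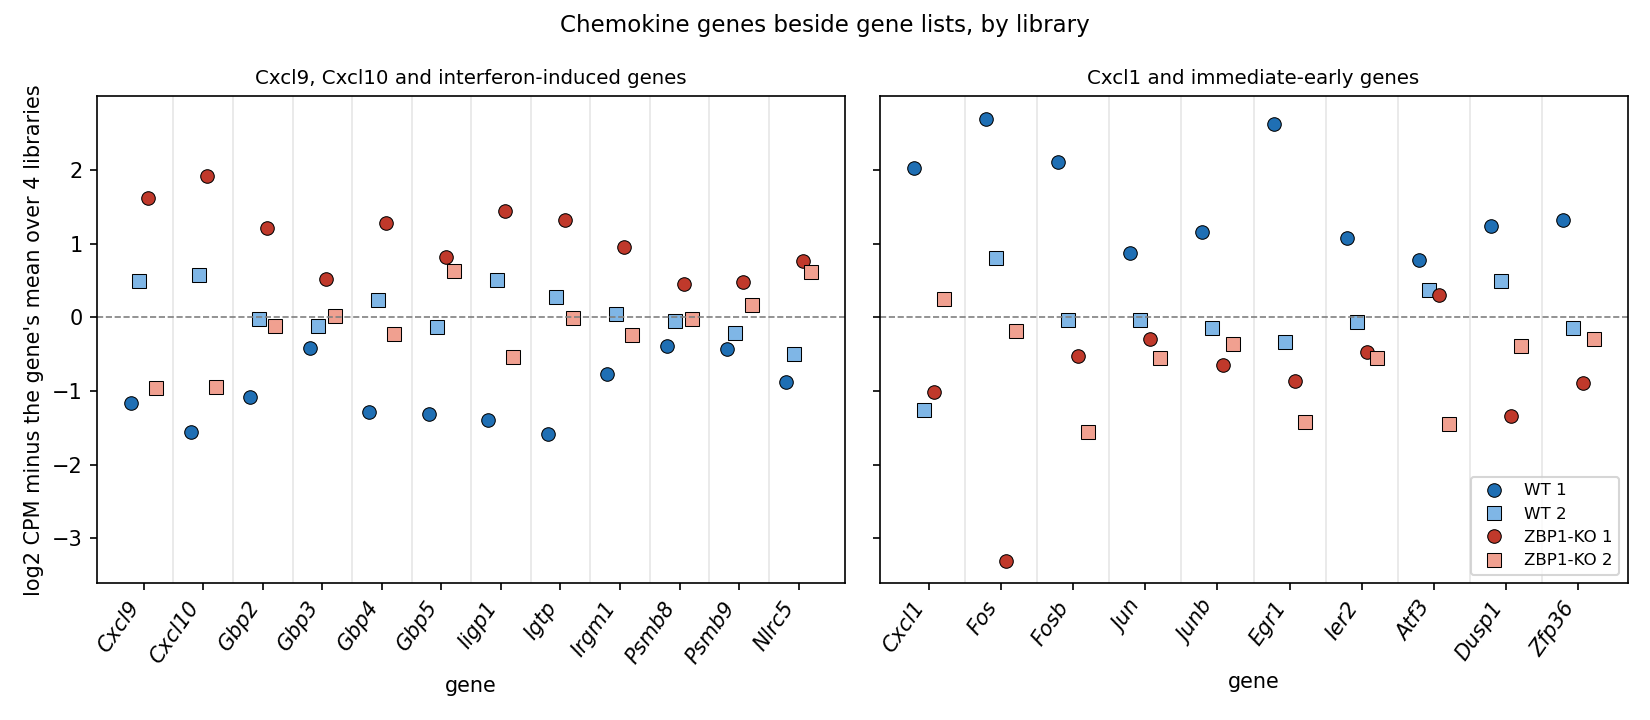
Log2 CPM of each gene minus its mean over the 4 libraries, with 1 point per library, for Cxcl9 and Cxcl10 beside interferon-induced genes (left) and for Cxcl1 beside immediate-early genes (right). ZBP1-KO 1 is highest for all 12 genes on the left, and WT 1 is highest for all 10 genes on the right.

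Regulators of these genes were counted as well. Of 13 tested genes of interferon gamma and NF-kB signalling, 0 were called in edgeR. An unadjusted p under 0.05 was reached by 2, both higher in ZBP1-KO, where the background was 3.88%. These were Irf1, a transcription factor that acts downstream of interferon gamma, and Nfkb1, a subunit of NF-kB. Irf1 measured 19.7 and 30.0 CPM in the WT libraries against 51.9 and 35.7 CPM with ZBP1-KO, a log2 fold change of 0.82 ± 0.27 (SE, n = 2 each; edgeR adjusted p = 0.999). Nfkb1 measured 25.4 and 31.9 CPM in the WT libraries against 39.9 and 44.1 CPM with ZBP1-KO, a log2 fold change of 0.55 ± 0.22 (SE, n = 2 each; edgeR adjusted p = 0.999). Neither gene overlapped between genotypes, where 16.0% of all tested genes had both ZBP1-KO values above both WT values. Nfkbia, an NF-kB inhibitor with a mean of 33.7 CPM, had a log2 fold change of 0.21. The median over the 13 genes was 0.21.

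Ccl5 (ENSMUSG00000035042, chromosome 11, 83525778 to 83530518), a ligand of Ccr1 and Ccr3 made in quantity by T cells, was the chemokine with the largest fitted fold change. It had 11 and 79 counts in the WT libraries against 154 and 89 with ZBP1-KO, or 0.885 and 6.76 CPM against 11.4 and 9.59 CPM. Both ZBP1-KO libraries exceeded both WT libraries, although the gap between the WT libraries was wider than that between WT 2 and either ZBP1-KO library. Exact 95% Poisson intervals of WT 2 (5.35 to 8.42 CPM) and ZBP1-KO 2 (7.7 to 11.8 CPM) overlapped. Overlap alone does not decide the order of these 2 libraries, and their difference was not tested directly. The log2 fold change was 1.46 ± 0.68 (SE, n = 2 each), with an interval of -0.01 to 2.93 and an unadjusted p of 0.0518 in edgeR. It was 0.63 without WT 1 and 3.55 without WT 2. In the alternative fits with all 4 libraries the unadjusted p ran from 0.00213 to 0.0524, and Ccl5 was called in none of them.

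Values of T cell markers were set beside Ccl5. Of 8 markers 7 were tested, none was called in edgeR, none had an unadjusted p under 0.05, and all 7 had a log2 fold change above 0, with a median of 0.89. Their summed level was 14.5 and 10.3 CPM in the WT libraries against 26.3 and 19.3 CPM with ZBP1-KO, and the sums did not overlap. By gene, both ZBP1-KO values lay above both WT values for 2 of the 7 tested, where the background was 16.0%. No marker was at 0 in all libraries. Cd8a, which marks cytotoxic T cells, measured 0.885 and 2.82 CPM in the WT libraries against 4.65 and 3.88 CPM with ZBP1-KO. Like Ccl5 it was lowest in WT 1, whereas Cd3g was lowest in WT 2, with 0.599 CPM against 4.10 CPM in WT 1. Whether T cell number accounts for the level of Ccl5 was not tested.

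Ccl2 (ENSMUSG00000035385, chromosome 11, 82035571 to 82037453), which draws monocytes from the blood through Ccr2, gave no direction. It measured 2.33 and 6.24 CPM in the WT libraries against 3.17 and 4.74 CPM with ZBP1-KO, with both ZBP1-KO values between the WT values. Its log2 fold change was -0.12 ± 0.64 (SE, n = 2 each; edgeR adjusted p = 0.999), with an interval of -1.52 to 1.28. It became 0.76 without WT 2 and 0.15 without ZBP1-KO 1. Ccl12, a close relative that also signals through Ccr2, measured 1.85 and 1.80 CPM in the WT libraries against 3.98 and 4.52 CPM with ZBP1-KO, with a log2 fold change of 1.22 ± 0.68 (SE, n = 2 each; edgeR adjusted p = 0.999). Ccl7, a further Ccr2 ligand, had 0.959 and 1.51 CPM with ZBP1-KO against 1.53 and 2.82 CPM with WT. The summed level of 8 macrophage markers was 374 and 245 CPM in the WT libraries against 355 and 352 CPM with ZBP1-KO, which overlap. None of them was called or had an unadjusted p under 0.05 in edgeR, and their median log2 fold change was 0.20. Csf1r, the receptor for macrophage growth factor, had 102 to 148 CPM in the libraries.

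Cxcl1 (ENSMUSG00000029380, chromosome 5, 90891241 to 90893115), a neutrophil attractant that acts through Cxcr2, was set apart by a single library. It had 83 and 8 counts in the WT libraries against 11 and 18 with ZBP1-KO, or 6.68 and 0.684 CPM against 0.811 and 1.94 CPM. WT 1 was 9.76-fold above WT 2, and WT 2 was the lowest of all libraries. Its log2 fold change was -1.44 ± 1.02 (SE, n = 2 each; edgeR adjusted p = 0.999), with an interval of -3.67 to 0.80, and it became 0.98 without WT 1. Immediate-early genes, such as Fos and Egr1, which cells switch on within minutes of a stimulus or of handling, were also highest in WT 1. Their summed level over 9 genes was 498 and 187 CPM in the WT libraries against 104 and 121 CPM with ZBP1-KO. WT 1 was the highest library for 9 of 9, against 23.1% of all tested genes, and the median log2 fold change was -1.34. In edgeR, 0 of the 9 were called and 8 were lower at an unadjusted p under 0.05, where the background was 3.88%. Unlike Cxcl1, all 9 had both ZBP1-KO values below both WT values, against 16.3% of all tested genes. Whether handling set the Cxcl1 level was not tested.

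Neutrophil markers also peaked in WT 1, with a summed level of 23.8 and 4.70 CPM in the WT libraries against 9 and 12.2 CPM with ZBP1-KO. Of 4 markers 3 were tested and WT 1 was highest for all 3, but Ly6g, which defines mouse neutrophils, had 0 counts in every library. None was called or had an unadjusted p under 0.05 in edgeR, and the median log2 fold change was -0.34. Red blood cell genes had summed levels of 2490 and 805 CPM in the WT libraries against 801 and 2070 CPM with ZBP1-KO, with WT 1 highest for 4 of 4, none called and none at an unadjusted p under 0.05 in edgeR, and a median of -0.19. Their order (WT 1, ZBP1-KO 2, then the others) resembled that of Cxcl1, and a part of blood content in the Cxcl1 level was not tested. Cxcl2, a relative of Cxcl1 that shares its receptor, had 15 and 5 counts in WT and 0 in both ZBP1-KO libraries, and was below the filter.

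Homeostatic chemokines differed among themselves. Cxcl12 (ENSMUSG00000061353, chromosome 6, 117168535 to 117181367), which retains leukocytes and progenitors that carry Cxcr4, measured 168 and 224 CPM in the WT libraries against 188 and 198 CPM with ZBP1-KO. Both ZBP1-KO values fell between the WT values. The log2 fold change was -0.027 ± 0.19 (SE, n = 2 each; edgeR adjusted p = 0.999), with an interval of -0.45 to 0.40. This interval was narrower than those of Cxcl9, Cxcl10, Ccl5, Ccl2 and Cxcl1.

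Cxcl14 (ENSMUSG00000021508, chromosome 13, 56288643 to 56296551), an epithelial chemokine, had the lowest unadjusted p among those with a fold change below 0. It measured 32.7 and 49.5 CPM in the WT libraries against 19.0 and 34.9 CPM with ZBP1-KO. ZBP1-KO 1 was the lowest library, but ZBP1-KO 2 lay above WT 1, so the groups overlapped. Its fold change on the log2 scale was -0.62 ± 0.30 (SE, n = 2 each), with an interval of -1.27 to 0.04 and an unadjusted p of 0.0631 in edgeR. It ran from -1.11 without ZBP1-KO 2 to -0.24 without ZBP1-KO 1. Markers of tubule segments also differed by library. Slc34a1 measured 923 and 1030 CPM in the WT libraries against 529 and 995 CPM with ZBP1-KO, and Aqp2 measured 903 and 1060 CPM in the WT libraries against 730 and 530 CPM with ZBP1-KO. Of the 8 epithelial genes, 0 were called in edgeR. At an unadjusted p under 0.05, where the background was 3.88%, 1 (Aqp2) was lower, and the median was 0.14. Whether the share of tubule segments in each kidney sample set the Cxcl14 level was not tested.

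Cxcl13 (ENSMUSG00000023078, chromosome 5, 95956951 to 95961068) attracts B cells through Cxcr5 and marks lymphoid aggregates. It had 25 and 18 counts in the WT libraries against 83 and 19 with ZBP1-KO, or 2.01 and 1.54 CPM against 6.12 and 2.05 CPM. The groups did not overlap. The exact 95% Poisson intervals of ZBP1-KO 2 (1.23 to 3.20 CPM) and WT 1 (1.30 to 2.97 CPM) did, and each held the level of the other library. Their order was therefore not resolved at this depth. On the log2 scale the difference was 1.21 ± 0.76 (SE, n = 2 each; edgeR adjusted p = 0.999), with an interval of -0.46 to 2.87, and 0.20 without ZBP1-KO 1. B and plasma cell markers were mixed. Their summed level was 126 and 34.0 CPM in the WT libraries against 49.4 and 62.3 CPM with ZBP1-KO, mostly from Jchain, the joining chain of secreted antibodies. Of 6 markers 4 were tested, none was called or had an unadjusted p under 0.05 in edgeR, 2 had a log2 fold change above 0, and the median was -0.21. Mzb1, a plasma cell gene, measured 4.74 and 4.62 CPM in the WT libraries against 5.83 and 6.25 CPM with ZBP1-KO. Cd79b measured 1.05 and 4.02 CPM in the WT libraries against 0.59 and 0.539 CPM with ZBP1-KO. Of the 4 tested, 1 (Mzb1) had both ZBP1-KO values above both WT values, where the background was 16.0%. Another 1 (Cd79b) had both below, where the background was 16.3%. Cd79a, part of the B cell receptor, had 19 and 6 counts in WT and 0 in both ZBP1-KO libraries, below the filter.

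The membrane-tethered chemokines Cxcl16 and Cx3cl1 had the smallest ranges over the libraries. Cxcl16 (ENSMUSG00000018920, chromosome 11, 70453983 to 70459984), the ligand of Cxcr6, measured 33.9 and 33.5 CPM in the WT libraries against 44.2 and 41.0 CPM with ZBP1-KO. Both ZBP1-KO libraries were above both WT libraries, and the genotype means differed by more than either replicate pair. Exact 95% Poisson intervals of WT 1 (30.8 to 37.3 CPM) and ZBP1-KO 2 (37 to 45.4 CPM) overlapped. This overlap does not decide the order of these libraries, and their difference was not tested directly. Group means were 33.7 ± 0.291 CPM (SD, n = 2) for WT and 42.6 ± 2.21 CPM (SD, n = 2) for ZBP1-KO. On the log2 scale the difference was 0.34 ± 0.20 (SE, n = 2 each; edgeR adjusted p = 0.999), with an interval of -0.10 to 0.78, and it stayed between 0.28 and 0.39 with any 1 library left out. Exons of Cxcl16 overlap those of Zmynd15 on the opposite strand. Zmynd15 measured 15.2 and 19.1 CPM in the WT libraries against 17.3 and 12.1 CPM with ZBP1-KO, an order unlike that of Cxcl16.

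Cx3cl1 (ENSMUSG00000031778, chromosome 8, 94772009 to 94782427), or fractalkine, is held on endothelial and epithelial surfaces and binds Cx3cr1 on monocytes and macrophages. It measured 76.1 and 84.7 CPM in the WT libraries against 79.4 and 78.9 CPM with ZBP1-KO. The groups overlapped, with a log2 fold change of -0.022 ± 0.18 (SE, n = 2 each; edgeR adjusted p = 0.999) and an interval of -0.42 to 0.38. Endothelial markers overlapped too, with a summed level over 4 genes of 140 and 160 CPM in the WT libraries against 163 and 130 CPM with ZBP1-KO, none called and none at an unadjusted p under 0.05 in edgeR, and a median of -0.02.

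Receptors of the 10 chemokines were then examined. Of 11 receptors 7 were tested and 0 were called in edgeR. An unadjusted p under 0.05 was found for 2, against 3.88% of all tested genes. Both were higher in ZBP1-KO, and both were receptors of a membrane-tethered chemokine. Cx3cr1 measured 7 and 7.10 CPM in the WT libraries against 12.2 and 17.0 CPM with ZBP1-KO. Its log2 fold change was 1.05 ± 0.34 (SE, n = 2 each; edgeR adjusted p = 0.999), and 0.80 without ZBP1-KO 2. Cxcr6, a receptor of tissue-resident T cells, had 0 and 4 counts in the WT libraries against 49 and 21 counts with ZBP1-KO. Its fitted log2 fold change, 4.05 ± 1.38 (SE, n = 2 each; edgeR adjusted p = 0.999), rested on those 4 WT counts and is not a precise size. It was 3.07 without WT 1, with an unadjusted p of 0.0659 in edgeR. Without WT 2, where the remaining WT library had 0 counts, the limit of 3 counts put it at no less than 3.61. Thus the ligand Cx3cl1 differed by a log2 of -0.022 and its receptor by 1.05, and Cxcl16 by 0.34 and its receptor by 4.05, without a call in either pair.

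The remaining receptors gave lower or mixed values. Ackr3, a scavenger of Cxcl12, measured 16.0 and 9.92 CPM in the WT libraries against 13.4 and 6.03 CPM with ZBP1-KO. Cxcr4, the signalling receptor of Cxcl12, measured 3.78 and 2.48 CPM in the WT libraries against 1.62 and 1.83 CPM with ZBP1-KO, a log2 fold change of -0.86 ± 0.78 (SE, n = 2 each; edgeR adjusted p = 0.999). Ccr2 measured 2.73 and 1.71 CPM in WT against 4.94 and 3.66 CPM in ZBP1-KO. Ccr1 measured 2.01 and 2.39 CPM against 3.02 and 0.215 CPM. Ccr2 was higher and Cxcr4 lower in both ZBP1-KO libraries, whereas Ackr3 and Ccr1 overlapped. Cxcr3, the receptor of Cxcl9 and Cxcl10, had 3 and 5 counts in the WT libraries against 5 and 6 with ZBP1-KO, too few to show a difference. Cxcr2 and Cxcr5 had 2 counts each, all in ZBP1-KO 2, and Ccr3 had 0 counts in all libraries, which allows 0.221 to 0.323 CPM per library.

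**Figure D4:**
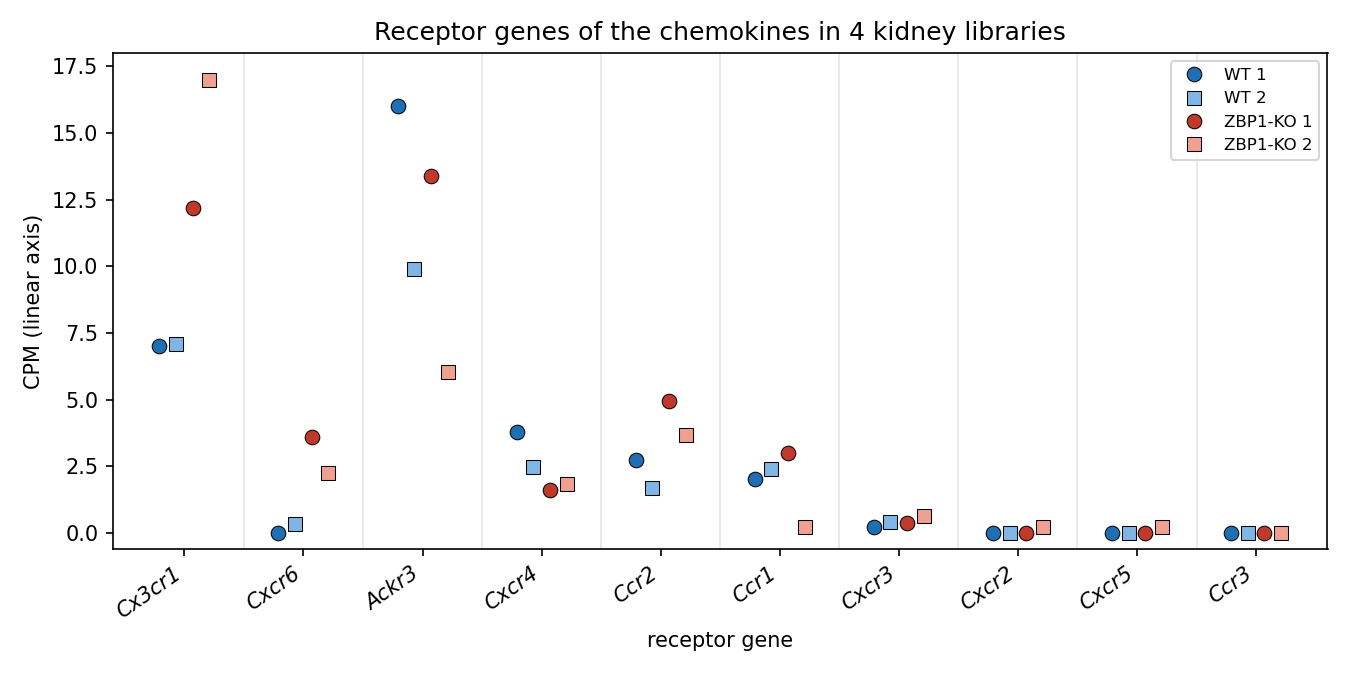
Level of receptor genes of the chemokines in CPM (linear axis), with 1 point per library. Cx3cr1 and Cxcr6 are higher in both ZBP1-KO libraries than in both WT libraries, and Cxcr3, Ccr3, Cxcr2 and Cxcr5 lie at or near 0.

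The rest of the pathway was summarised from lists. Of 28 other chemokines 15 were tested, 0 were called and 0 had an unadjusted p under 0.05 in edgeR, and their median log2 fold change was 0.09, with 8 above 0. The exact test of edgeR gave 2 (4.40% of all genes) and DESeq2 gave 0 (3.11%) at an unadjusted p under 0.05. Both ZBP1-KO values lay above both WT values for 3 of the 15 (16.0% of all tested genes) and below them for 1 (16.3%). In mean CPM, not scaled by length, the list was led by Ccl27a (21.5 CPM), Ppbp (11.2 CPM) and Ccl6 (7.20 CPM). Ccl27a, a skin-homing chemokine with near-identical copies in the mouse genome whose unique counts are uncertain, had a log2 fold change of 0.35 ± 0.24 (SE, n = 2 each; edgeR adjusted p = 0.999). Ppbp, a platelet chemokine, measured 17.1 and 4.45 CPM in the WT libraries against 8.33 and 14.9 CPM with ZBP1-KO, with WT 1 and ZBP1-KO 2 high as for red blood cell genes. Ccl6, a myeloid chemokine, measured 16.3 and 4.02 CPM in the WT libraries against 3.17 and 5.28 CPM with ZBP1-KO, and like Cxcl1 was raised in WT 1. Ccl20, Ccl21a, Ccl26 and Cxcl17 had 0 counts in all libraries. Ccl21a has near-identical copies, so only pairs unique to it could be counted.

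Of 12 other chemokine receptors only Ccrl2 passed the filter. Ccrl2, an atypical receptor, measured 2.65 and 4.70 CPM in the WT libraries against 0.369 and 2.15 CPM with ZBP1-KO, with a log2 fold change of -1.57 ± 0.94 (SE, n = 2 each; edgeR adjusted p = 0.999). Next in mean CPM were Ackr2 (1.10 CPM) and Xcr1 (0.521 CPM), both below the filter. Of 5 tested proteases that release or trim chemokines, 0 were called or had an unadjusted p under 0.05 in edgeR, and the median log2 fold change was 0.08. Adam10 and Adam17, which shed Cx3cl1 and Cxcl16 from the cell surface, had log2 fold changes of 0.079 ± 0.29 and 0.12 ± 0.27 (SE, n = 2 each; edgeR adjusted p = 0.999). Dpp4, which clips Cxcl10 and Cxcl12, had 0.125 ± 0.25 (SE, n = 2 each; edgeR adjusted p = 0.999).

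Fat and injury markers were the last lists set beside the chemokines. The 7 fat markers had summed levels of 80.3 and 110 CPM in the WT libraries against 230 and 190 CPM with ZBP1-KO. Of 6 tested, 1 (Cfd, which encodes adipsin) was called higher in edgeR, against 0.0134% of all genes. All 6 had an unadjusted p under 0.05, against 3.88% of all genes, and the median was 2.17. Lep had 0 counts in every library. The groups did not overlap for the 6 tested genes, as for Ccl5, Cxcl13 and Cxcl16, where the background was 16.0%. A part of fat tissue in those 3 chemokine values was not tested. Tubular injury markers overlapped, with summed levels over 5 genes of 622 and 553 CPM in the WT libraries against 625 and 487 CPM with ZBP1-KO. Of 3 tested, none was called or had an unadjusted p under 0.05 in edgeR, and the median was 0.26. Havcr1, a defining marker of injured proximal tubule, had 1 to 5 counts per library.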

How the data were processed

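The authors isolated kidney RNA (Trizol), selected polyadenylated transcripts for TruSeq libraries and sequenced them as read pairs. They trimmed reads with Trimmomatic, aligned them with hisat2 (mm10 per the labels) and used featureCounts to count uniquely mapped pairs. Deposited values are raw counts for each Ensembl gene. Program versions, annotation release and strand setting were not given in the sources used here. The described library preparation was strand-specific, but whether counting used strand is unknown, and no molecular identifiers were described, so intervals and limits cover counting error only.

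Symbols, positions and merged exon lengths came from GENCODE M21 (GRCm38), which matched 54495 of 54532 IDs. The test was edgeR (version 4.0.16, under R 4.3.3), using its quasi-likelihood F test after filterByExpr (minimum count 10, minimum total 15) and TMM normalization. Genotype was the only term, p-values were adjusted by Benjamini-Hochberg over 14908 genes, and a call meant an adjusted p under 0.05. Unless another test is named, calls and p-values from edgeR are those of this test, and calls in the marker, regulator, protease and interferon-induced lists were not recounted under alternatives. Fold changes used a prior count of 0.125. SE was taken as |log2 fold change| over √F, and 95% intervals use it with the t distribution of the fit. The limit for a count of 0 was 3 counts per library. The test was checked on simulated data. Promoters came from RefSeq (GRCm38.p6), which held 7 of the 10 members.

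Members and lists were chosen with earlier results of these data known. Genes named were all members, receptors of members, Zbp1, genes of the pathway lists with an unadjusted p under 0.05 and the 3 of each list with the highest mean CPM. Others, among them Cxcl11, Ccl7, Ccl12, Cxcl2 and marker genes, were picked after their values were seen. Some genes counted in the lists are not reported here by name. Alternatives were RLE and upper quartile factors, other filters, the replicate block, the exact and likelihood ratio tests of edgeR, DESeq2 1.42.0, limma-voom (limma 3.58.1), omission of mitochondrially encoded genes, an adjusted p under 0.1, and each library left out in turn.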

Additional observations from a re-analysis of the deposited data

How the results depend on the processing

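Calls among the 10 chemokines, the receptors and the other chemokines stayed at 0 under every alternative run. Of 140 fold changes of the chemokines under alternatives, 131 kept their direction, none was called, and 9 changed sign. Without ZBP1-KO 1 these were Cxcl9 (-0.86), Cxcl10 (-0.82), Ccl2 (0.15) and Cxcl12 (0.01). Without WT 2 they were Ccl2 (0.76), Cxcl12 (0.20) and Cx3cl1 (0.057), and without WT 1 Cxcl1 (0.98). With the replicate block it was Ccl2 (0.011). Over the fits without 1 library, Cxcl9 reached 2.02, Cxcl10 2.67, Ccl2 -0.66, Cxcl1 -2.29, Cxcl12 -0.22 and Cx3cl1 -0.098. Fits without a library assume that the lone library of its group varies like the other group.

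Over all genes, 2 were called. The number was 41 with all genes of at least 1 count, where more genes were tested, 11 with the replicate block, 14 with the exact test, 26 with the likelihood ratio test, 9 with DESeq2, 7 with limma-voom and 4 without mitochondrially encoded genes. With 1 library left out it ran from 0 to 15. For these the cause was not tested. The labels do not say that replicate numbers pair the libraries, so the block has no stated basis in the design. Deviations of WT 1 and ZBP1-KO 1 correlated with r = 0.0154 over genes. With 2 libraries per group, this value cannot decide whether the libraries were paired. With the block, 2 of the 10 chemokines and 583 of all 14908 genes had an unadjusted p under 0.05. Low counts limit Cxcl1, Cxcl13 and several receptors.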
